A study of Mus musculus with 3 samples.

Results

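The 10 genes described here are the coreceptor genes Cd4, Cd8a and Cd8b1 and 7 genes whose products take part in the choice between the CD4 and CD8 T cell fates: Zbtb7b, Runx1, Runx2, Runx3, Cbfb, Gata3 and Tox. They were chosen by name from 50600 annotated genes and not by their measured levels, though earlier results of these data were known. Each matched exactly 1 identifier. RNA of mouse regulatory T cells (primary cells of strain C57BL/6NJ) was sequenced in 3 libraries, numbered replicates 2, 3 and 4, which form 1 group without a second condition. Per the file headers the cells had been activated for 16 hours, and the linked differentiation protocol is, by its name, one for CD4 T cells. No engineered allele is named in the labels, and the name of the library protocol refers to polyA+ RNA although the molecule is given as total RNA. All 3 libraries carry 1 donor identifier, sex and age are not recorded, so the labels do not say which animals the libraries came from, and each SD measures the spread between these 3 libraries.

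The libraries held 41222058, 47665060 and 99097524 fragments assigned to genes, so that 3 fragments were worth 0.0728, 0.0629 and 0.0303 CPM (fragments per 1000000 assigned). They stood apart in sex-linked genes. Xist had 27625, 85 and 18895 fragments and the Y-linked gene Ddx3y 8, 2932 and 4314 in replicates 2, 3 and 4. Replicate 2 thus had Xist and almost no Ddx3y, replicate 3 the reverse and replicate 4 both, so the libraries were not repeats of 1 RNA sample despite the shared identifier. How many animals stand behind each was not tested, and values without each library are given where a result changes. Markers of the labelled cells were present. Foxp3, the factor that defines regulatory T cells, was at 76.4, 82.3 and 83.9 TPM (fragments per exon length, scaled to a total of 1000000 in each library), and all 6 T cell markers and all 5 regulatory T cell markers examined reached 1 TPM in every library. The T cell markers were led by Trac, Trbc2 and Cd3d at 1743, 963 and 275 TPM on average, and the regulatory T cell markers by Il2ra, Tnfrsf18 and Ctla4 at 658, 405 and 351 TPM.

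CD4 and CD8 are surface proteins that bind MHC class II and class I molecules next to the T cell receptor and bring the kinase Lck to it. CD4 acts as a single chain, whereas CD8 on most T cells is a pair of one alpha chain (Cd8a) and one beta chain (Cd8b1), and the beta chain needs the alpha chain to reach the surface. Thymocytes pass through a stage with both coreceptors and then keep one: ThPOK, the product of Zbtb7b, holds cells in the CD4 fate, and Runx proteins with their partner CBF-beta, above all Runx3, silence Cd4 and support the CD8 genes. Tox and Gata3 act before or beside ThPOK on the CD4 side.

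Of the 10 genes, 8 reached 1 TPM in every library, where 45.6% of 21764 protein-coding genes did so. Cd4 and Cbfb exceeded 100 TPM in every library, 7 genes were at 10 TPM or more, and Cd8a and Runx2 stayed below 1 TPM. The order of mean levels in TPM was Cd4, Cbfb, Zbtb7b, Runx1, Runx3, Cd8b1, Gata3, Tox, Cd8a and Runx2. Neighbours in this order had ranges over the 3 libraries that did not overlap, except Cd8a and Runx2, whose ranges met at 0.338 TPM (the lowest value of Cd8a) and 0.339 TPM (the highest of Runx2). Within each library Cd8a was the higher of these 2, at 0.338 against 0.213, 0.403 against 0.339 and 0.508 against 0.321 TPM, from at most 83 fragments each.

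**Figure D1:**
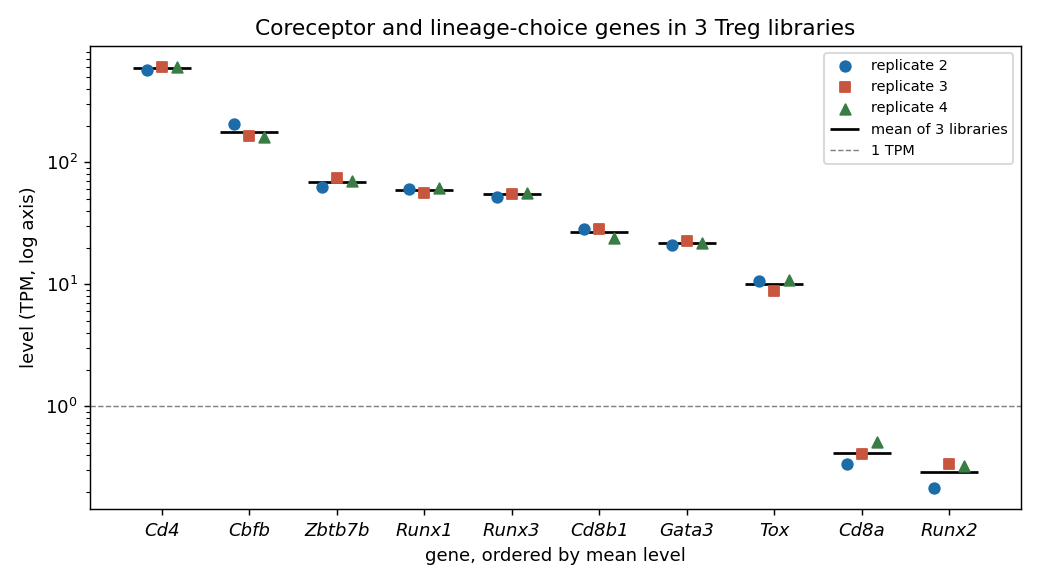
Level in TPM (log axis) of each of the 10 genes in replicates 2, 3 and 4 (circles, squares and triangles), with the mean of the 3 libraries as a bar and 1 TPM as a dashed line. Cd4 lies near 591 TPM, 7 genes lie between 10.1 and 177 TPM on average, and Cd8a and Runx2 lie below the dashed line in every library.

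Cd4 was by far the most abundant coreceptor gene. Cd4 (ENSMUSG00000023274.14, mm10 chromosome 6, 124864692 to 124888221, minus strand, 11 exon blocks) was at 571, 604 and 599 TPM in replicates 2, 3 and 4, or 591 ± 17.9 (SD, n = 3), from 28084, 34911 and 70541 fragments. It ranked 230th among 21764 protein-coding genes. Its coefficient of variation over the libraries was 3.03%, beside a median of 4.61% over 471 protein-coding genes within a factor of 2 of its level, so the 3 libraries gave nearly one value.

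The 2 chains of CD8 were present at unequal levels. Cd8b1 (ENSMUSG00000053044.8, chromosome 6, 71322788 to 71337494, plus strand, 6 exon blocks) was at 28.2, 28.6 and 23.9 TPM, or 26.9 ± 2.60 (SD, n = 3), from 511, 607 and 1036 fragments. Cd8a (ENSMUSG00000053977.13, chromosome 6, 71373427 to 71379173, plus strand, 4 exon blocks) was at 0.338, 0.403 and 0.508 TPM, or 0.416 ± 0.0858, from 15, 21 and 54 fragments. Every value of the beta chain gene lay above every value of the alpha chain gene. Exact Poisson intervals for Cd8a (95%, counting error only) ran from 0.189 to 0.557 TPM in replicate 2, from 0.249 to 0.616 in replicate 3 and from 0.382 to 0.663 in replicate 4. These intervals overlap, so no difference in Cd8a between libraries was detectable at this depth.

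Within single libraries, Cd8b1 was 83.5, 70.9 and 47.1 times as abundant as Cd8a. As a log2 difference of TPM + 1 this was 4.30 ± 0.22 (SD, n = 3, higher in 3 of 3 libraries). Its size rests in part on the scaling for exon length, since Cd8a has 3637 exon bases and Cd8b1 1483. As CPM with a pseudocount of 1, without length scaling, the difference was 3.15, with Cd8b1 still the higher. Of the summed Cd8 chain level, Cd8a made up 1.18%, 1.39% and 2.08%. Cd4 in turn exceeded Cd8b1 by 4.41 ± 0.16 and Cd8a by 8.71 ± 0.06 on the log2(TPM + 1) scale, and took 95.2%, 95.4% and 96.1% of the summed level of the 3 coreceptor genes. The pseudocount of 1 TPM holds down the differences from Cd8a; with 0.1 TPM they were 10.17 from Cd4 and 5.72 from Cd8b1. Each difference was tested over the 3 libraries by exact permutation of its signs (two-sided). In each of the 11 pairs compared in this report the sign was the same in all 3 libraries and the exact permutation p was 0.25, the smallest that 3 libraries allow (0.25 also after Benjamini-Hochberg adjustment over the 11 pairs), so no pair could pass a threshold of 0.05.

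The Cd8 chain genes are neighbours on 1 strand. The gap between the end of Cd8b1 and the start of Cd8a was 35.9 kb, and it held 3 annotated noncoding genes or pseudogenes without a fragment in any library, Gm44110, Gm44111 and Gm44174, and the noncoding gene Gm44175 with 0, 8 and 3 fragments. Gm44174 ends 142 bases before Cd8a on the same strand, and 3 fragments of it would make at most 1.74 TPM. Beyond Cd8a, Rmnd5a (a subunit of a ubiquitin ligase) was at 85.2 TPM on average, and on the other side of Cd8b1 the muscle methyltransferase gene Smyd1, 554 bases away, was at 0.575 TPM. Between Smyd1 and Rmnd5a, Cd8b1 was thus the one annotated gene above 1 TPM. Near Cd4, the gene Lag3, whose product is a relative of CD4 that also binds MHC class II, lies 16.1 kb from Cd4 on the same strand and was at 192, 205 and 216 TPM (204 ± 12.0, SD, n = 3).

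**Figure D2:**
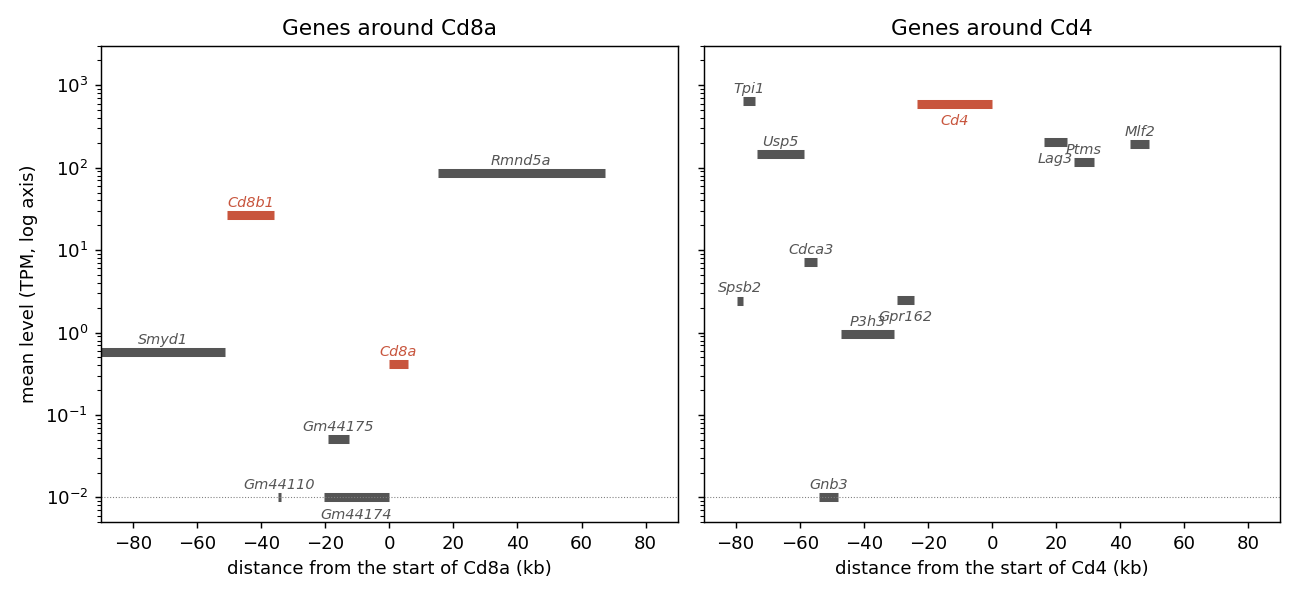
Mean level over the 3 libraries (TPM, log axis) of annotated protein-coding and long noncoding genes by distance in kb from the annotated start of Cd8a (left) and of Cd4 (right); positive distances run toward higher coordinates, the length of a bar is the span of the gene, and Smyd1 runs past the left edge. Genes without a fragment are drawn on the dotted line. Cd8b1 lies at 26.9 TPM and Cd8a at 0.416, while Cd4 at 591 and Lag3 at 204 are both high.

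ThPOK, the zinc finger repressor that keeps T cells in the CD4 lineage, was well expressed. Its gene Zbtb7b (ENSMUSG00000028042.15, chromosome 3, 89377644 to 89394776, minus strand, 10 exon blocks) was at 63.3, 74.9 and 70.1 TPM, or 69.4 ± 5.82 (SD, n = 3), from 4318, 5999 and 11450 fragments. Replicate 2 was lowest and replicate 3 highest. The gene Runx3, whose product opposes ThPOK in thymocytes, was at a similar level, and Zbtb7b exceeded it in 3 of 3 libraries by 0.34 ± 0.08 on the log2 scale, with ratios of 1.21, 1.35 and 1.26. An antisense gene, Gm15417, shares 116 exon bases with Zbtb7b on the other strand and had 34, 37 and 102 fragments, which the stranded counting told apart.

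Runx1 and Runx3 were at similar levels in TPM, and Runx2 was detected but stayed below 1 TPM in every library. Runx1, which in T cells is needed from early thymocyte stages on and binds Foxp3 in regulatory T cells (ENSMUSG00000022952.16, chromosome 16, 92601466 to 92826149, minus strand), was at 60.3, 56.5 and 61.1 TPM, or 59.3 ± 2.47 (SD, n = 3). Runx3 (ENSMUSG00000070691.10, chromosome 4, 135120652 to 135177990, plus strand) was at 52.2, 55.4 and 55.7 TPM, or 54.5 ± 1.98. The log2 difference of Runx1 from Runx3 was 0.12 ± 0.09, positive in 3 of 3 libraries but only 0.03 in replicate 3. Its small size rests on the scaling for exon length, since Runx1 has 11827 exon bases and Runx3 5003. As CPM, without length scaling, the difference was 1.35. Runx2, best known as the master factor of bone formation (ENSMUSG00000039153.16, chromosome 17, 44495987 to 44814797, minus strand), had 23, 43 and 83 fragments, or 0.213, 0.339 and 0.321 TPM (0.291 ± 0.0682). Its exact Poisson intervals (95%) ran from 0.135 to 0.320, from 0.246 to 0.457 and from 0.256 to 0.398 TPM and overlap with each other. Of the summed Runx level, Runx1 made up 52.0% ± 1.60, Runx3 47.8% ± 1.54 and Runx2 0.255% ± 0.0589 (SD, n = 3).

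Cbfb encodes CBF-beta, which binds no DNA itself and strengthens DNA binding by each Runx protein. Cbfb (ENSMUSG00000031885.14, chromosome 8, 105170674 to 105217989, plus strand) was at 204, 164 and 162 TPM, or 177 ± 23.7 (SD, n = 3), the second highest of the 10 genes. The high value was that of replicate 2, and without it the mean was 163 TPM. The summed level of the 3 Runx genes was 113, 112 and 117 TPM, so that Cbfb stood at 1.81, 1.46 and 1.38 times that sum. The log2 difference was 0.62 ± 0.20 from the Runx sum and 1.55 ± 0.18 from Runx1 alone. These 2 differences rest on the scaling for exon length, since Runx1 has 11827 exon bases and Cbfb 3480. As CPM, without length scaling, they were -0.67 and -0.19, with Cbfb the lower.

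**Figure D3:**
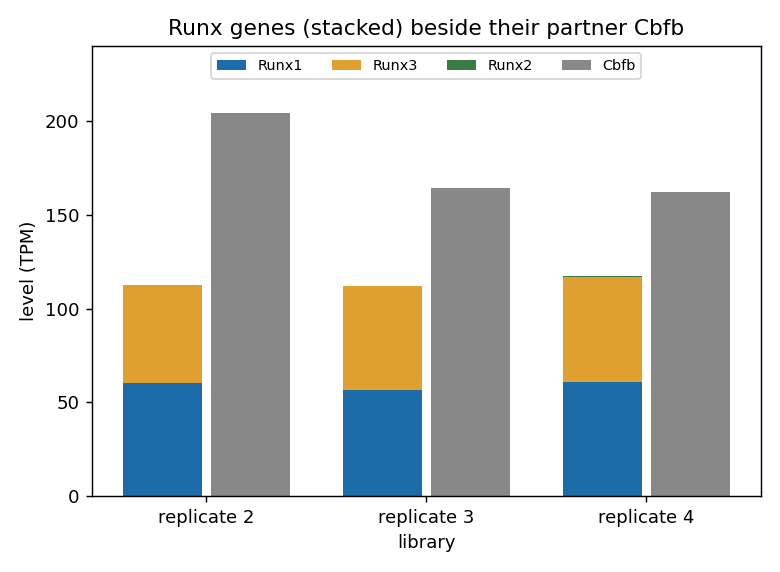
Level in TPM of Runx1, Runx3 and Runx2 (stacked bars) and of Cbfb (grey bars) in each of the 3 libraries, on an axis from 0. Runx1 and Runx3 fill the stack in nearly equal parts, Runx2 is barely visible, and the grey bar is taller than the stack in every library and tallest in replicate 2 (204 TPM).

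The distal promoters of the 3 Runx genes share a stretch of bases. Apart from a long noncoding RNA next to Runx3, no other gene in the RefSeq promoter table holds it. Mean levels of the 3 Runx genes ranged from 0.291 to 59.3 TPM. The promoters are shown because the stretch carries, as a pair of copies, the 6 letters ACCACA, which match the sequence that Runx proteins bind. The lines give 30 bases of each gene, 5′ to 3′ on the strand of the gene, from RefSeq (GRCm38.p6, the assembly of mm10), with each ACCACA in capitals.
Runx1: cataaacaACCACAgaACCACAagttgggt
Runx2: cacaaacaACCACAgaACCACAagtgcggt
Runx3: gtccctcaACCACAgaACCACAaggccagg
The Runx1 bases are chr16:92826025-92826054 (minus strand), those of Runx2 chr17:44814583-44814612 (minus strand) and those of Runx3 chr4:135120503-135120532 (plus strand). The longest run of letters shared by the 3 windows was 18 bases, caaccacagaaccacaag. Counted from the RefSeq start site, it begins at base 27 of the transcript for Runx1 and at base 22 for Runx2, and 136 bases before the start site for Runx3.

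Among 32851 promoter windows of 300 bases (250 before and 50 after a start site, 27025 genes), the 18-base run occurred in 4, those of Runx1, Runx2, Runx3 and Gm16225. The last of these is annotated on the opposite strand beside the distal start of Runx3 and had no fragment in any library. ACCACA or its reverse complement TGTGGT occurred at least once in 16.8% of all windows and at least 2 times in 1.81%. Of the 10 genes, 7 had a window in the table, with 10 windows in all, and 4 of these windows held a match: the distal windows of Runx1 (2 matches), Runx2 (3) and Runx3 (2), and 1 of the 2 windows of Zbtb7b (1 match). The windows of Cd8a, Gata3 and Cbfb and the proximal windows of Runx1 and Runx3 held none. Cd4, Cd8b1 and Tox had no window. A match is a run of letters and not a measured binding site. Fragments were counted over all exons of a gene, which does not separate its start sites. Whether the matches bear on the levels was not tested.

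Gata3 and Tox, which act in CD4 lineage choice before ThPOK, were expressed at lower levels than Zbtb7b. Gata3, a zinc finger factor that is also the master factor of Th2 cells (ENSMUSG00000015619.10, chromosome 2, 9857078 to 9890034, minus strand), was at 20.9, 22.7 and 21.8 TPM, or 21.8 ± 0.910 (SD, n = 3).
Its coefficient of variation of 4.17% lay below the median of 7.22% for 3482 genes of like level. Tox, an HMG-box factor needed for CD4 T cells to form in the thymus (ENSMUSG00000041272.11, chromosome 4, 6686353 to 6991557, minus strand), was at 10.6, 8.84 and 10.8 TPM, or 10.1 ± 1.09, with replicate 3 lowest. The log2 difference of Gata3 was -1.62 ± 0.06 from Zbtb7b and 1.05 ± 0.20 from Tox (SD, n = 3), with the same sign in 3 of 3 libraries. Tox has 7609 exon bases against 3978 of Gata3, and as CPM the second difference was 0.18. Gata3 shares 77 exon bases with a gene on the same strand, 9230102O04Rik, which had no fragment, and fragments that fall on those bases may not have been counted for either.

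Close relatives of these genes were mostly silent. Of 11 relatives, 3 reached 1 TPM in every library, and the median was 0.0197 TPM beside 0.355 TPM over all protein-coding genes. They were Lag3, Tox4 at 88.5 ± 2.13 TPM and Zbtb7a (LRF, a close relative of ThPOK that acts with it in CD4 T cells) at 48.6 ± 1.02. Gata2, Gata4, Gata5, Gata6 and Zbtb7c had no fragment in any library, where 3 fragments would make at most 0.0455 TPM for Gata2 and 0.077 TPM for Gata6. Gata1, the erythroid family member, was at 0.706, 0.944 and 1.49 TPM. Gata3, Zbtb7b and Zbtb7a were the GATA and ZBTB7 genes above 10 TPM in these libraries, and Tox4 exceeded Tox in level in all 3.

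Other regulators of the coreceptor genes or of lineage choice were nearly all expressed. Of 32 such genes, 30 were at 1 TPM or above in each library and 2, Tle2 and Cbfa2t3, were below it in each, with a median of 82.2 TPM beside 0.355 TPM over all protein-coding genes. Tcf7 (TCF-1) was highest at 1017 ± 26.2 TPM. Lck, the kinase that both coreceptors carry, was at 794, 864 and 831 TPM, and Chd4, the remodeller of the NuRD complex that has been tied to Cd4 expression, at 411, 412 and 451 TPM. None of the 32 had no fragment.

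Genes of the CD8 and cytotoxic programme, among them known Runx3 targets, were divided. Of 17 genes, 5 were at 1 TPM or above in each library and 10 were below it in each, with a median of 0.446 TPM beside 0.355 TPM over all protein-coding genes. The 3 highest were Ctsw (cathepsin W) at 215, 261 and 242 TPM, the chemokine gene Xcl1 at 228, 228 and 213 TPM and the granule gene Nkg7 at 130, 133 and 116 TPM. Among the killing genes and the factors that go with them, Fasl was at 18.8, 15.3 and 20.8 TPM. Others were low: Prf1 (perforin) had 1, 9 and 16 fragments, Gzmb 3, 0 and 8, and Eomes was at 0.434 ± 0.0478 TPM. Klrk1 and Gzmk had no fragment, where 3 would make at most 0.0342 and 0.177 TPM. Itgae, the CD103 integrin gene that Runx3 activates in CD8 T cells, was at 0.572, 0.335 and 1.03 TPM, highest in replicate 4.

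Genes linked to Gata3 in Th2 cells and to Tox in exhausted T cells were also divided. Of 10 Th2 genes, 3 were at 1 TPM or above in each library (Il4ra at 99.7 ± 9.27 TPM, Ccr4 at 67.4 ± 3.57 and Maf at 38.5 ± 4.48) and the other 7 were below it in each. Il13 had 0, 17 and 0 fragments, Il5 had 1 fragment in all, Ccr3 and Ptgdr2 had none (3 would make at most 0.0751 and 0.093 TPM), and Epas1, at 0.247, 0.815 and 0.522 TPM, was lowest in replicate 2. Of 8 inhibitory receptor genes tied to Tox, 5 reached 1 TPM in every library, led by Pdcd1 (PD-1) at 371, 412 and 417 TPM, Ctla4 at 394, 332 and 327 TPM and Lag3. Havcr2 (TIM-3) had 3 fragments in all, and Entpd1 (CD39) was at 0.103, 0.0750 and 0.294 TPM, highest in replicate 4. The medians were 0.236 TPM for the Th2 genes and 9.37 TPM for the receptor genes.

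**Figure D4:**
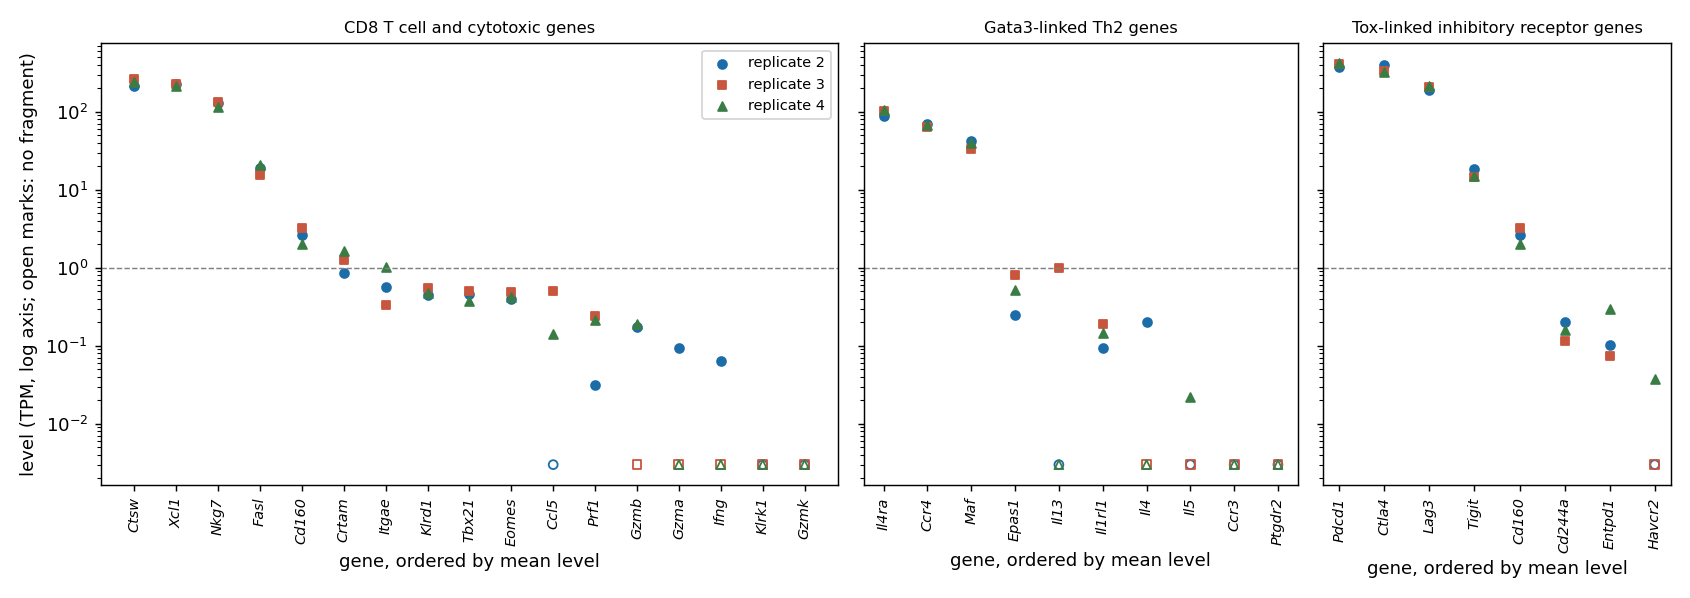
Level in TPM (log axis) of each gene of 3 lists in replicates 2, 3 and 4: CD8 and cytotoxic genes, Th2 genes linked to Gata3, and inhibitory receptor genes linked to Tox. Open marks at the bottom stand for no fragment and the dashed line is 1 TPM. Each list holds a few genes above 10 TPM and a tail with means below 1 TPM. Cd160 and Crtam lie between them, at 2.61 and 1.25 TPM on average.

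Markers of other cells that could carry CD8 or CD4 transcripts were low for the genes given here. Among immature thymocyte markers, Rag2 and Ptcra had no fragment, Rag1 was at 0.211, 0.0528 and 0.0518 TPM and Dntt at 0.424, 0.0984 and 0.145 TPM. Among 6 dendritic cell markers, which bear on Cd8a and Cd4 since both are found on dendritic cells, Clec9a, Xcr1 and Siglech had no fragment, 5 stayed below 1 TPM, and the summed level was 0.759 to 1.26 TPM. The 5 NK or ILC markers summed to 0.239 to 2.08 TPM and the 6 myeloid markers to 0.0595 to 0.254 TPM, with no fragment of Lyz2, Csf1r or C1qa. Of the B cell markers, Igkc was at 2.31, 6.29 and 2.77 TPM and Cd79a at 1.01, 0.958 and 1.39 TPM, and among gamma delta T genes, 2 of 4 listed could be matched, Trdc at 2.65, 3.09 and 3.22 TPM and Sox13 at 0.190, 0.663 and 0.452. Cd8b1, at 23.9 to 28.6 TPM, thus stood above each marker named in this paragraph and above Cd8a. In bulk RNA, fewer cells with a transcript and less of it per cell cannot be told apart, so whether Cd8b1 came from few or many cells was not tested.

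The spread of the 10 genes between libraries was set beside that of all genes. A chi-square test of equal rates was run over all 13688 genes with 30 or more fragments in sum, on library sizes scaled by trimmed means of M values (TMM), and a gene was called where the ratio of its highest to its lowest library was at least 2 and the p, after Benjamini-Hochberg adjustment, was under 0.05. All 10 genes could be tested and 0 were called, where 11.0% of all genes tested were, a share at which 0 of 10 does not set these genes apart. At a ratio of 1.5 the count was again 0, where 16.1% of all genes were called. By the adjusted p alone 8 of 10 differed between libraries, where 70.5% of all genes did, so at this depth most genes differ by more than counting error and the share among the 10 is near the background. Such a test counts every fragment as independent, and it sets library against library with no condition behind it.

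The largest of these statistics was that of Cbfb, with a ratio of 1.24 and an adjusted chi-square p of 8.72e-61. Its coefficient of variation of 13.4% exceeded that of 97.9% of 1817 protein-coding genes of like level, whose median was 5.05%. It was set by replicate 2, and between replicates 3 and 4 the ratio was 1.03 (adjusted chi-square p = 0.0536). Why replicate 2 was higher was not tested. The ratio was 1.09 for Cd4, 1.22 for Zbtb7b and 1.22 for Cd8b1, with adjusted chi-square p of 1.85e-26, 2.81e-21 and 0.000365. The ratio of Cd8b1 was set by replicate 4, and between replicates 2 and 3 it was 1.04 (adjusted chi-square p 0.572). Cd8a and Runx2 had the highest ratios of the 10, 1.52 and 1.64, and did not pass the test (adjusted chi-square p = 0.354 and 0.160), since few fragments stand behind them.

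For Gata3 the ratio was 1.12 and the adjusted chi-square p 0.0337, which did not hold without replicate 2 (0.143) or without replicate 3 (0.262). The ratio was 1.06 for Runx1, 1.10 for Runx3 and 1.20 for Tox, each with an adjusted chi-square p under the threshold (1.77e-05, 0.000338 and 1.96e-05). For Runx1, Runx3 and Tox the p was no longer under the threshold when a certain library was left out. Without replicate 2 the adjusted chi-square p of Runx3 was 0.597, and without replicate 3 that of Runx1 was 0.167 and that of Tox 0.540. Of the 10 genes, 4 had a coefficient of variation above the median of genes of like level: Cbfb, Cd8b1, Zbtb7b and Tox. The other lists held few called genes, among them Gata1, Itgae, Epas1, Entpd1, Igkc, Sox13 and Rag1, each at a mean of 3.79 TPM or less.

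**Figure D5:**
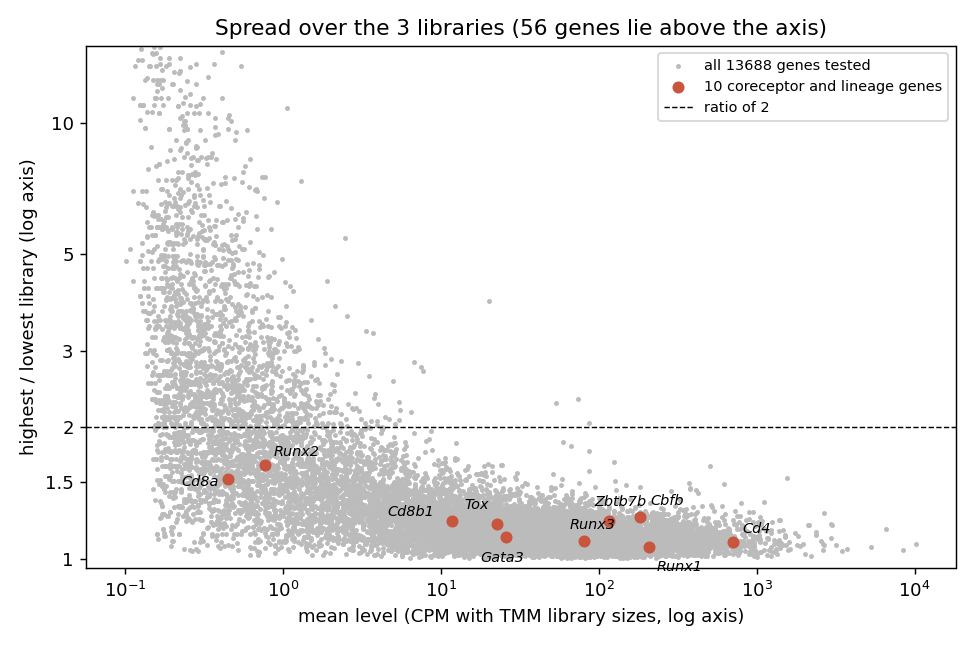
Highest-to-lowest library ratio against mean level (CPM on TMM library sizes; both axes log) for all 13688 genes tested (grey) and the 10 coreceptor and lineage genes (red), with a dashed line at a ratio of 2; 56 genes lie above the axis. All 10 red points lie below the line, the highest being Runx2 at 1.64 and Cd8a at 1.52.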

How the data were processed

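The values the authors deposited are unnormalized counts of fragments for each gene, beside exon coordinates and exon length. Per the file headers they were made with featureCounts 1.4.6-p4 from paired-end alignments with both ends aligned (strand option 2), over exons of GENCODE mouse M13, and the alignment file names refer to STAR. The build is mm10 per the labels; no source used here gives the version of STAR. The featureCounts command has no option for counting fragments that overlap several genes or align to several places.

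Symbols came from GENCODE M21 by unversioned identifier (50376 of 50600 matched; the 224 others held 0.00804% to 0.0104% of fragments). TPM was computed as count over exon length, scaled to 1000000 in each library; detection meant 1 TPM in every library. Because there is 1 group, edgeR's quasi-likelihood test was not run; libraries were compared by chi-square (2 degrees of freedom, at least 30 fragments in sum, a lowest count of 0 replaced by 3) on TMM sizes (edgeR 4.0.16, R 4.3.3), and pairs of genes by exact sign-flip tests with a pseudocount of 1 TPM. The steps were tested on simulated data. Intervals are exact Poisson and cover counting error only. Where no fragment was counted, the TPM of 3 fragments in the library where it is highest is given as the limit. Computations ran in Python 3.11.15 with scipy 1.17.1. Alternatives were other scalings, filters, pseudocounts and thresholds, DESeq2 1.42.0 size factors, and each library left out.

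The 10 genes and the other lists were chosen with earlier results of these data known. Named genes are the 10, and of each other list the 3 highest, those without a fragment and those called between libraries; some further list members are named that were chosen after their values were seen. Of the marker lists, 2 genes are not reported here. No gene was named for a pattern like that of another, because 3 libraries of 1 group hold no conditions.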

Additional observations from a re-analysis of the deposited data

How the results depend on the processing

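The count of 8 detected genes was the same at 0.5 and 5 TPM and without each library. The 11 differences between gene pairs kept their direction with pseudocounts of 0.1 and 5 TPM and without each library. As CPM 9 of 11 did, and the differences of Cbfb from Runx1 (-0.19) and from the Runx sum (-0.67) were reversed, since that setting leaves out exon length. Over all genes tested, 1505 were called different between libraries. The number was 2821 with a summed count of 1 or more, 544 with 100 or more and 2205 at a ratio of 1.5. It was 523 to 777 when a library was left out, where fewer samples enter. The count among the 10 genes was 0 in each of these settings, but Cd8a, with 90 fragments in sum, was not tested at 100 or more. Mean levels changed by -11.0% to 13.4% when a library was left out and rose by 6.38% to 6.52% when scaled to protein-coding genes outside the mitochondrial genome. No paired comparison of conditions was possible because the 3 libraries form 1 group. Depth limits Cd8a and Runx2, with 90 and 149 fragments in sum, and the 3 libraries limit every test over libraries.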
